A study of Mus musculus with 4 samples.

Results

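The genes described are 8 transcription factor genes of mesenchymal cells and of the epithelial to mesenchymal transition (EMT), namely Prrx1, Prrx2, Twist1, Twist2, Snai1, Snai2, Zeb1 and Zeb2, out of 21887 protein-coding genes of the annotation. Their members in the data are all peaks of open chromatin that overlap one of these genes or lie within 100 kb of it, which came to 207, 161, 127 and 158 peaks in the libraries P0 A, P0 B, P8 A and P8 B, out of 144356, 118849, 88578 and 98647 peaks. Merging overlapping peaks of the 4 libraries gave 235 sites near the 8 genes, out of 170558 sites in the genome. The peaks come from ATAC-seq, in which the Tn5 transposase cuts and tags accessible DNA, on chondrocytes from the knee articular cartilage of C57BL/6 mice aged 0 to 4 postnatal days. P0 cells were primary chondrocytes kept in culture for less than a day. P8 cells had been passaged 8 times in DMEM/F12 medium with serum, each passage following a doubling of the cell number, as a model of dedifferentiation, the loss of the chondrocyte phenotype in culture. Each passage had 2 libraries, called A and B, and nothing in the sample descriptions says that they came from separate cultures or litters, so any p-value measures the spread between these libraries, which may be technical. The cells were a bulk culture, so a site open in fewer cells and a site less open in every cell cannot be told apart.

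All 8 genes encode proteins that bind DNA and act mainly in mesenchymal cells. The paired-related homeobox proteins PRRX1 and PRRX2 act in the limb bud mesenchyme, from which cartilage forms. TWIST1 and TWIST2 are basic helix-loop-helix (bHLH) proteins that pair with E proteins and bind the E-box, CANNTG. The zinc finger proteins SNAI1 and SNAI2 and the zinc finger and homeodomain proteins ZEB1 and ZEB2 bind E-boxes of the form CACCTG and repress epithelial genes such as the one for E-cadherin, a process best known from embryonic development, fibrosis and tumours. In cartilage, Twist1 and Snai1 are known as brakes on chondrocyte differentiation and matrix gene expression.

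The background estimated by the peak caller, a measure of depth, came to 194 and 162 tags per 10 kb in the P0 libraries and 140 and 134 in the P8 libraries, so the P8 libraries were shallower. A value called fold enrichment here is the pileup of tags at the summit of a peak over the local background, and with so few tags (a median of 13 to 16 at a summit) counting error alone is wide. At sites held by all 4 libraries the median fold enrichment was also lower at P8 (8.28, 8.09, 6.43 and 7.15 for P0 A, P0 B, P8 A and P8 B). Differences in fold enrichment are therefore given after centring each library on this median, unless called uncentred. Of 6 chondrocyte marker genes, 6, 6, 5 and 5 carried a peak no farther than 1 kb from an end in P0 A, P0 B, P8 A and P8 B, with Matn1 the gene without one at P8. Of the macrophage and blood markers Ptprc, Csf1r and Adgre1 had no such peak in any library and Spi1 had 2 or 3. The summed number of peaks at gene ends was 4, 3, 1 and 2 for endothelial, 5, 2, 0 and 0 for epithelial and 3, 2, 1 and 2 for skeletal muscle markers, with Pecam1, Cdh5, Krt18 and Myf5 at 0 in all 4, so that the epithelial sum rests on Cdh1, Epcam and Krt8. The endothelial and epithelial sums were thus lower in both P8 libraries, and the part of other cell types in the results was not tested.

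The annotated starts of Snai1, Twist1 and Twist2 were covered by a peak in all 4 libraries. Snai2 and Zeb1, for which only gene ends were known here, also held a peak within 1 kb of an end in all 4, which makes 5 of 8 genes, close to the 58.2% of all protein-coding genes. Prrx2 and Zeb2 lacked one in P8 A only, so the count was 7 without that library, and at the ends of Prrx1 a peak was called in P8 B alone. The 250 bases before an annotated start (RefSeq, GRCm38.p6) are shown for the starts of 3 genes that a peak overlapped in every library, for the internal start of Zeb2, where a peak overlapped the bases shown in every library, and for Prrx2 and Prrx1 as starts that were not. Capitals mark the E-box CANNTG and the sequence TGANTCA, which the AP-1 factors recognise. Both motifs read the same on the 2 strands, and CACCTG, searched on both strands, is one form of CANNTG. The sequences are written 5′ to 3′ on the strand of the gene.
Snai1 (chr2:167537945-167538194, strand +): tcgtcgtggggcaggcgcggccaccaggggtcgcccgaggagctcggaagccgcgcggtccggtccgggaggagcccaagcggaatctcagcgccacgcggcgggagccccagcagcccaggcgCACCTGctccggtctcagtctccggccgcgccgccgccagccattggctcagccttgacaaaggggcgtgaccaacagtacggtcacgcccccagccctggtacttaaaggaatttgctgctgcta
Twist1 (chr12:33957421-33957670, strand +): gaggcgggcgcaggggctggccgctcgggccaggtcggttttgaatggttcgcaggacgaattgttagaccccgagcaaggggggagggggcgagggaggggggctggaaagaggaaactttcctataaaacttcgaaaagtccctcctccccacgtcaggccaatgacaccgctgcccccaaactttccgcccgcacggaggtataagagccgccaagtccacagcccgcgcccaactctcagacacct
Twist2 (chr1:91801211-91801460, strand +): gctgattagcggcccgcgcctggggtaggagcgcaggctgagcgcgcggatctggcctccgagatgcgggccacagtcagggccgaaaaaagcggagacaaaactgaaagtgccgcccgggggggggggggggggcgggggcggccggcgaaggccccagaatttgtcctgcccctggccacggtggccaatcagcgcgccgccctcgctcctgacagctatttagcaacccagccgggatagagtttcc
Zeb2, internal start (chr2:45110278-45110527, strand -): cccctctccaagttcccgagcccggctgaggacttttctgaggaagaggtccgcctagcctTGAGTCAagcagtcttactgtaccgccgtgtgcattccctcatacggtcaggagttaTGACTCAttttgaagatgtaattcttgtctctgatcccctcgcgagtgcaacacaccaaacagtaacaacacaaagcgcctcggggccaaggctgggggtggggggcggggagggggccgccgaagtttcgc
Prrx2 (chr2:30845117-30845366, strand +): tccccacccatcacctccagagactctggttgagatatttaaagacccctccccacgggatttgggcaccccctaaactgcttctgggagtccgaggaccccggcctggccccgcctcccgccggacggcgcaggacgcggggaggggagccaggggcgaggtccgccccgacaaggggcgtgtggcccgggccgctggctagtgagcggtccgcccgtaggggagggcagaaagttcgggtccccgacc
Prrx1 (chr1:163313651-163313900, strand -): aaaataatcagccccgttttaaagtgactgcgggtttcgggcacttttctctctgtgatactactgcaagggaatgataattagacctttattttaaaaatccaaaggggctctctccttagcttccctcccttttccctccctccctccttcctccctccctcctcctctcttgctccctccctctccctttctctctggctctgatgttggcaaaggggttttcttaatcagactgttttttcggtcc
Of these 6 sequences, the one of Snai1 held 1 E-box, of the form CACCTG, and the one of the internal Zeb2 start held 2 TGANTCA sequences. Neither motif was found in the other 4 windows. Over 32851 promoter windows of the same length, 66.2% held CANNTG, 17.2% held CACCTG on either strand and 6.75% held TGANTCA. Snai1 had 70% GC and 27 CpG dinucleotides, Twist2 68.8% and 23, Prrx2 70% and 21, Twist1 62.4% and 18, the internal Zeb2 start 57.6% and 14, and Prrx1 47.6% and 4, against medians of 52.4% and 6 over all windows. A match is a description of the letters only. Snai2 and Zeb1 had no entry in the promoter table.

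The Snai1 start carried the highest start-site values of the 8 genes. Its peak, at chr2:167537901-167538478, had a fold enrichment of 9.83 in P0 A, 9.34 in P0 B, 10.9 in P8 A and 9.68 in P8 B. The summits lay 88 to 92 bases before the start in the 4 libraries, inside the sequence shown. The peak was 573 and 453 bp wide at P0 and 428 and 435 bp at P8, and the passages overlapped in fold enrichment as deposited. After centring both P8 libraries lay higher, with a difference P8 minus P0 of 0.37 on the log2 scale (SE 0.18), which did not pass the test (limma, adjusted p = 0.206), and the difference was 0.10 uncentred. SNAI1 is known to repress Cdh1 and, in chondrocytes, matrix genes such as Col2a1.

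Snai2, which encodes the related repressor Slug, had its peak at the lower-coordinate end of the gene, at chr16:14705277-14706048. Fold enrichment there came to 8.37 and 8.17 at P0 and 8.84 and 9.13 at P8, so both P8 libraries lay above both P0 libraries. The centred difference was 0.39 on the log2 scale (SE 0.17, limma, adjusted p = 0.159). A second site inside the gene, at chr16:14706128-14706356, had 4.46, 3.27, 5.03 and 4.14, with a centred difference of 0.53 (SE 0.20, limma, adjusted p = 0.117). These were the 2 sites near Snai2 that all 4 libraries held, and neither passed the threshold.

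At the start of Twist1 the site chr12:33956821-33958702 was the broadest start site among the 8 genes, with single peaks of 1872, 1455, 1263 and 915 bp in P0 A, P0 B, P8 A and P8 B. Its fold enrichment came to 6.73 and 6.90 at P0 and 7.64 and 6.60 at P8, and these deposited values overlapped. At the start of Twist2, at chr1:91801266-91802059, the values were 7.93, 7.02, 7.71 and 6.99, which overlapped too. After centring both P8 libraries lay higher at both starts, and the differences were 0.33 (SE 0.18, limma, adjusted p = 0.27) for Twist1 and 0.25 (SE 0.18, limma, adjusted p = 0.412) for Twist2, and for Twist2 the sign turned without centring (-0.02).

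Zeb1 had a peak near its lower-coordinate end in every library, at chr18:5591546-5592920, with fold enrichment of 6.55, 6.77, 5.31 and 6.36. The centred difference was 0.08 and the uncentred one -0.20, so the direction depends on the scaling (limma, adjusted p = 0.818 after centring). A smaller site at the very end of the gene, at chr18:5591258-5591429, had 2.70 and 4.07 in the P0 libraries and no peak at P8. Zeb2 has several annotated starts. At the upstream one the site chr2:45117294-45117514 had 5.55 in P0 A, 3.53 in P0 B, no peak in P8 A and 5.06 in P8 B. The neighbouring site at chr2:45117115-45117242 had 3.78 and 4.71 at P0 and no peak at P8. At the internal start, the site chr2:45109155-45110529 was held by all 4 libraries with 5.42, 5.33, 4.88 and 5.67, which overlapped as deposited, while both P8 libraries lay higher after centring (0.24, SE 0.17, limma, adjusted p = 0.395). Among its annotated starts, 2 others between these had no peak within 1 kb in any library.

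The starts of the Prrx genes, like the upstream start of Zeb2, lacked a peak in at least 1 library. At Prrx2 the start site chr2:30845272-30845723 had a fold enrichment of 7.58 and 7.35 at P0, no peak in P8 A and 4.08 in P8 B, the lower values thus belonging to P8. At Prrx1 the annotated start, which lies inside the gene of the annotation, was covered by a peak of 73 bp in P0 A (3.93), by none in P0 B and P8 A, and a site of 81 bp there had 3.46 in P8 B. The nearest site held by all 4 libraries was inside the gene at chr1:163311916-163312608, with 6.28, 4.46, 5.11 and 4.59.

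**Figure D1:**
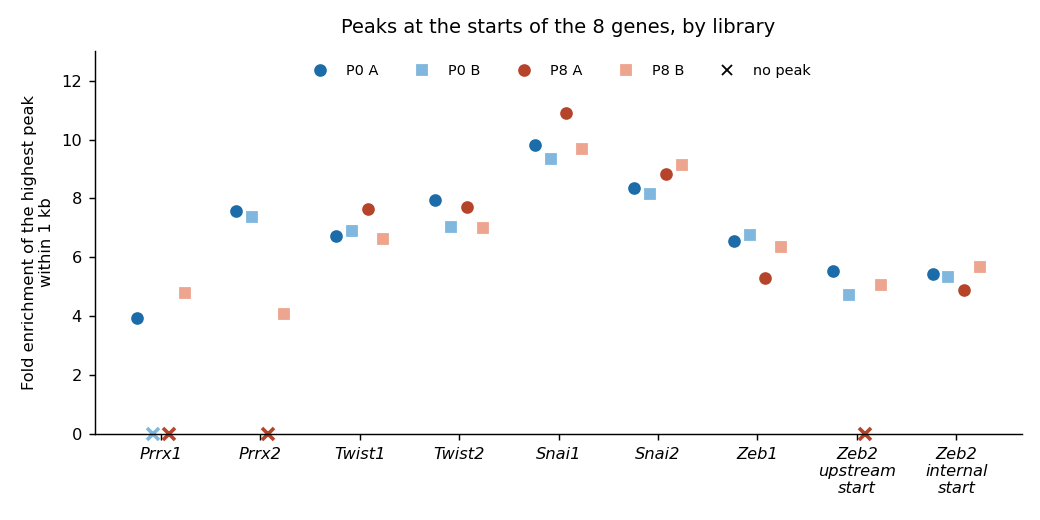
Fold enrichment (y axis) of the highest peak within 1 kb of the start of each of the 8 genes (x axis), with 1 point per library, crosses on the axis where a library had no peak, and for Snai2 and Zeb1 the lower-coordinate gene end in place of a start. Snai1 lies between 9.34 and 10.9 in all 4 libraries, and crosses occur at Prrx1, Prrx2 and the upstream start of Zeb2.

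The ratio of mean peak numbers in the window, P0 over P8, ran from 1.08 to 1.84 over the 8 genes. Its median was 1.27, close to the 1.29 of all genes with a peak. How many of all genes had a lower mean at P8 was not counted. For 3 of the 8 genes the libraries of the passages did not overlap. Prrx1 had 32 and 20 peaks in or within 100 kb at P0 and 18 and 17 at P8, a ratio of means of 1.49. Twist2 had 29 and 17 at P0 and 12 and 13 at P8, a ratio of 1.84, the highest of the 8. Zeb2 had 31 and 27 at P0 and 19 and 22 at P8, a ratio of 1.41. In these 3 of 8 genes more peaks were called in each P0 library than in either P8 library, against 56.1% of 21023 genes with a peak in any library. No gene of the 8 showed the opposite, against 3.35% of genes.

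The other 5 genes overlapped between passages, with ratios of 1.17 for Prrx2, 1.15 for Snai1, 1.10 for Zeb1, 1.08 for Twist1 and 1.38 for Snai2. Prrx2 had 38, 36, 25 and 38 peaks in P0 A, P0 B, P8 A and P8 B, Snai1 had 37, 32, 26 and 34, Zeb1 had 26, 19, 19 and 22, Twist1 had 6, 7, 4 and 8, and Snai2 had 8, 3, 4 and 4. In each of them P8 B reached or exceeded a P0 library. Summed over the 8 genes, there were 184 ± 32.5 peaks at P0 and 142.5 ± 21.9 at P8 (SD, n = 2), a ratio of 1.29 with an SD of 0.30 (p = 0.33 by a two-sided exact permutation test, which cannot go lower with 2 libraries against 2). The ratio over all peaks of the genome was 1.41, and the median over genes was 1.27 for the 8 and 1.29 for all genes with a peak. When the same number of strongest peaks was taken from every library, which sets the genome-wide ratio to 1, the ratio of the 8 genes turned to 0.899. Without P0 B or without P8 B, 6 of the 8 genes had more peaks in the P0 libraries left, a looser rule that cannot lower the count.

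The windows differ in what else they contain. Twist1 and Snai2 are short genes in sparse surroundings, with 7 and 10 sites in windows of 202 and 204 kb, whereas Snai1 and Prrx2 share theirs with 4 and 7 other protein-coding genes. At Prrx2 7 of 45 sites had Prrx2 as the nearest gene, the rest lying closer to 1700001O22Rik, Ntmt1, Asb6, Ptges, Tor1b or other neighbours, and at Snai1 11 of 39 did. At Zeb1 all 30 sites had Zeb1 as the nearest gene, at Zeb2 32 of 35, at Prrx1 29 of 35, at Twist2 26 of 34, at Snai2 8 of 10 and at Twist1 5 of 7. The farthest site still counted lay 99664 bp from Twist2 and had a peak in P0 A alone (fold enrichment 3.73). The nearest one left out lay 100495 bp from Prrx2 and was held by all 4 libraries, at 10.5, 12.4, 10.8 and 10.9.

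**Figure D2:**
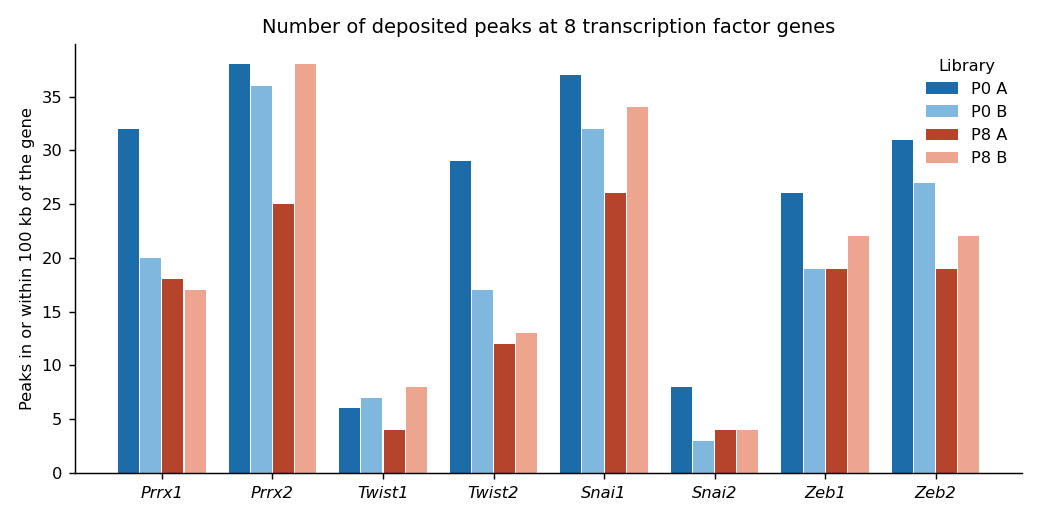
Number of peaks in or within 100 kb of each gene (y axis, peaks) for the 8 genes (x axis), with 1 bar per library. Both P0 bars stand above both P8 bars at Prrx1, Twist2 and Zeb2, and P8 B has 38 peaks at Prrx2, as many as P0 A.

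Of the 235 sites, 86 or 36.6% were held by all 4 libraries, against 32.4% of all sites. By both P0 libraries and no P8 library 35 sites were held, or 14.9% against 17.1% in the genome. By both P8 libraries and no P0 library 4 sites were held, or 1.70% against 1.82%. The shares near the 8 genes thus lay close to those of the genome. The largest other class was the 43 sites held by P0 A alone, the deepest library, or 18.3% against 17.5% of all sites. Sites held by every library were also the strongest, with a median highest fold enrichment of 8.09, against 5.38 for sites of both P0 libraries only and 3.93 for sites of 1 P0 library only. Over all sites these medians were 9.11, 5.49 and 4.12. The order follows in part from the measure, since the highest value is taken over more libraries at sites that more libraries hold. Without P0 B the count of 35 became 78 and without P8 B 53, and the count of 4 became 9 without P0 A, 13 without P8 A and 14 without P8 B. Leaving out a library loosens the rule for these classes, so the counts cannot fall. Without P0 B, for instance, the 43 sites of P0 A alone count too.

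The sites of both P0 libraries only spread over 7 of the 8 genes, with 8 at Zeb2, 6 each at Prrx1, Twist2 and Snai1, 4 each at Prrx2 and Zeb1, 1 at Twist1 and 0 at Snai2. The strongest at Prrx1 lay 67.8 kb outside the gene, at chr1:163177131-163177346, with 7.45 and 5.03 in the P0 libraries, and inside the gene the site chr1:163267322-163267522 had 5.87 and 4.58. Within Twist2 the site chr1:91828893-91829259 had 7.04 and 6.50. Near Snai1 the site chr2:167605309-167605549 had 7.18 and 7.50, but its nearest gene was Ube2v1, and the one at chr2:167562189-167562479, with 6.01 and 6.86, was nearest to Snai1. At Zeb2 the site chr2:45205805-45206010, 88.4 kb outside the gene, had 7.04 and 6.41. At Zeb1 the site chr18:5538293-5538479 had 4.55 and 5.95 and an intragenic one at chr18:5619865-5620086 had 5.38 and 5.03. At Twist1 the single such site, chr12:33966527-33966845, lay 6.70 kb from the gene and had 5.29 and 4.62.

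Of the 4 sites held by both P8 libraries and no P0 library, 2 lay in Ptges within the Prrx2 window, at chr2:30899318-30899616 (4.37 and 3.87 in P8 A and P8 B) and chr2:30913149-30913370 (3.98 and 5.39). One was 69.5 kb from Twist2, at chr1:91731764-91731954 (5.44 and 5.02), and 1 was 74.7 kb from Snai2, at chr16:14631003-14631190 (3.96 and 4.04), within LOC115488637. Of the 4 sites, 1 had a gene of the 8 as its nearest gene. All 4 were weak peaks. A further set of 18 sites was held by 3 libraries and missed by P8 A alone, or 7.66% against 6.41% of all sites. In P8 B 8 of these 18 had an uncentred value below both P0 libraries and 5 a value above both. The median of P8 B is itself lower (7.15, against 8.28 and 8.09 at sites of all 4 libraries). The same split was not counted over all sites of this kind. The 3 with the highest P0 values are given next, a choice that favours lower values at P8. At Snai2 the site chr16:14800095-14800641, 90.7 kb from the gene and nearest to it, had 14.5 and 12.03 at P0, no peak in P8 A and 7.07 in P8 B. In the Snai1 window the site chr2:167445837-167446307, within Slc9a8, had 10.5, 10.2, no peak and 4.40. At Zeb2 the site chr2:45145085-45145312, 27.6 kb outside the gene, had 9.93, 7.78, no peak and 6.06.

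**Figure D3:**
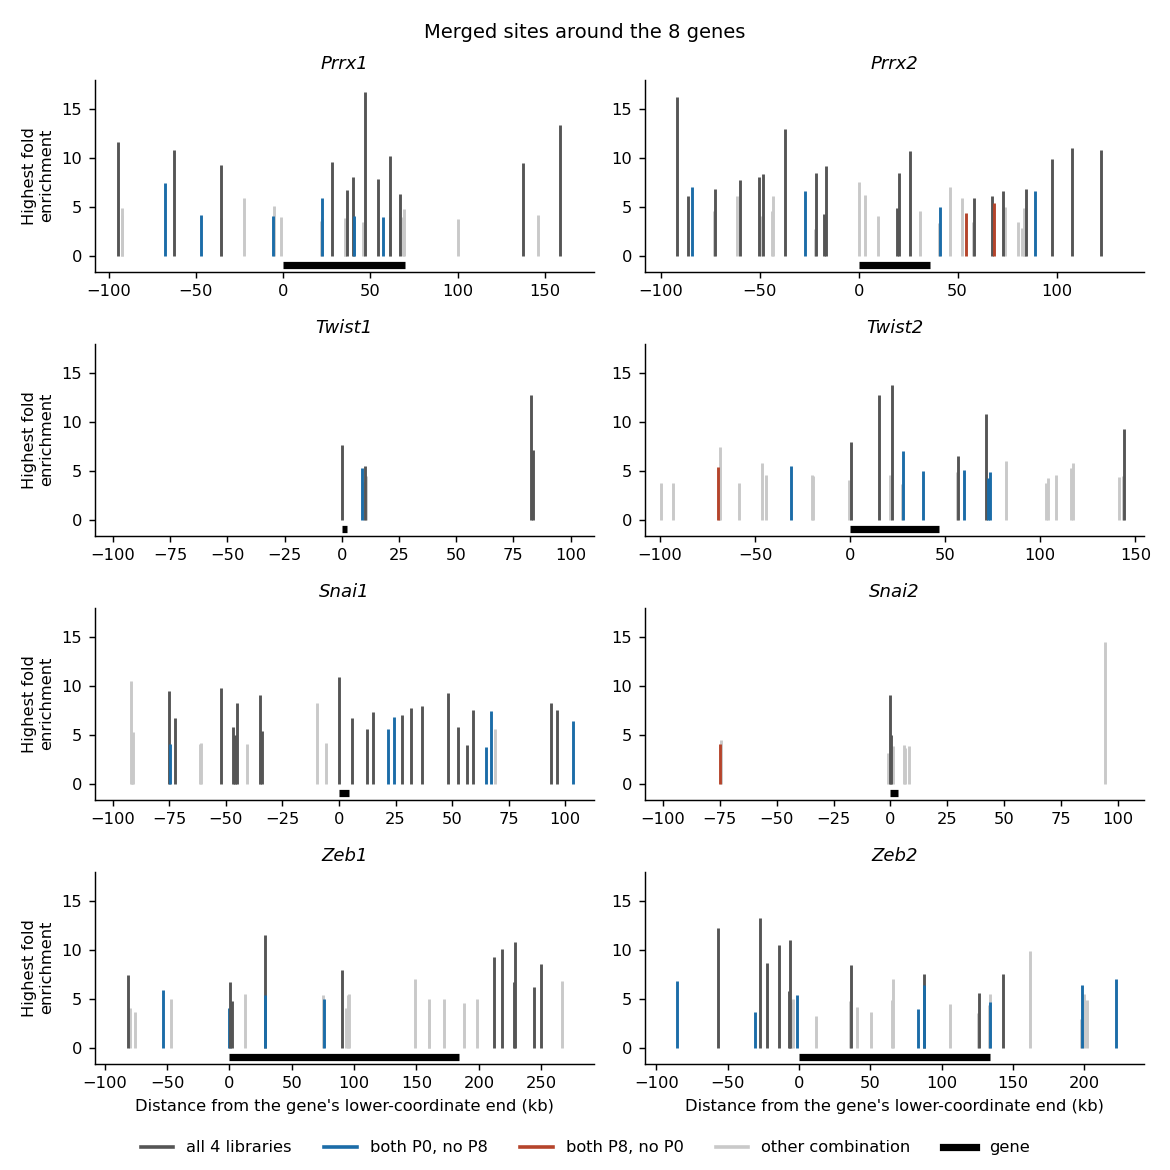
Merged sites around each of the 8 genes, with the distance in kb from the lower-coordinate end of the gene (x axis) against the highest fold enrichment in any library (y axis), a black bar for the gene and 1 line per site coloured by the libraries that hold it. Sites of both P0 libraries only (blue) number 35 and those of both P8 libraries only (red) 4, and no blue line occurs at Snai2.

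The strongest peak of each gene was compared next, taken in each library on its own. Of the 8 genes only Twist1 had it at the same site in every library. At Snai2, for instance, it lay 90.7 kb from the gene in both P0 libraries and at the gene end in both P8 libraries. At Prrx2 it had a fold enrichment of 16.2 and 16.3 at P0 and 11.9 and 13.2 at P8, and the site highest at P0 had 10.3 in P8 A. At Twist1 it had 11.7 and 12.8 at P0 and 8.47 and 7.63 at P8, and at Snai2 14.5 and 12.03 against 8.84 and 9.13. At Prrx1 it had 12.6 and 16.7 against 9.39 and 11.9, and at Zeb1 11.6 and 10.8 against 9.34 and 10.1. In these 5 of 8 genes both P0 libraries had the higher value, against 72.5% of 19683 genes with a peak in every library. At Twist2 (13.8, 12.7, 12.5 and 12.8), Snai1 (10.5, 10.2, 10.9 and 9.68) and Zeb2 (13.3, 12.1, 12.3 and 11.95) the passages overlapped. None of the 8 was higher in both P8 libraries as deposited, against 2.49% of genes. With fold enrichment divided by the median of each library, a scaling added after the values were seen, 3 of the 8 genes (Prrx2, Twist1 and Snai2) were higher in both P0 libraries, against 20.8% of genes, and 4 (Twist2, Snai1, Zeb1 and Zeb2) in both P8 libraries, against 25.9%. Zeb1 thus turned from higher at P0 to higher at P8 with the scaling.

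The 86 sites held by all 4 libraries were tested for a difference in fold enrichment in a fit over all 55294 such sites of the genome. This test is moderated, so the SE and p-value of a site draw in part on the variance over all of these sites and not on its own 4 values alone. Sites without a peak in 1 of the libraries cannot enter this fit, so it leaves out the sites of P0 only. After centring, 1 site was lower and 5 were higher at P8 (limma, Benjamini-Hochberg adjusted p under 0.05). In the genome 3.29% of such sites were lower and 5.87% higher by this test. Centred fold enrichment was higher in both P0 libraries at 14 of the 86 sites, against 21.5% in the genome, and higher in both P8 libraries at 37, against 34.1%. The median difference was 0.08 for the 86 sites and 0.07 for all sites on the log2 scale after centring, and -0.19 and -0.20 uncentred. The split depends on the scaling, since without centring 4 of the 86 sites were lower and 2 higher, and of all calls in the genome 91.1% were lower without centring and 35.9% with it. It also rests on P0 B, without which none of the 86 sites passed the threshold, with 7 at an unadjusted p under 0.05. Without P0 B the test called 2 lower and 6 higher of all 55294 sites, so the loss of calls was not particular to these genes, and the 6 differences kept their sign, the one that fell at -0.46 and the 5 others from 0.54 to 1.02.

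Both directions occurred in the Prrx1 window, where 12 sites were tested. The site that fell lies inside the gene at chr1:163292034-163292331 and was the strongest Prrx1 site, with 12.6 and 16.7 at P0 and 7.06 and 7.97 at P8. Its centred difference was -0.68 on the log2 scale (SE 0.19, limma, adjusted p = 0.0399), and -0.95 uncentred. A site 67.0 kb outside the gene, at chr1:163382176-163382889, had 5.38 and 5.49 at P0 and 7.11 and 9.48 at P8, a centred difference of 0.87 (SE 0.17, limma, adjusted p = 0.0131), and 0.59 uncentred. Its nearest gene was Gorab, not Prrx1. The call at this site was lost without centring (limma, adjusted p = 0.0702), without P0 A (0.0668) and without P0 B (0.093). The libraries of the passages did not overlap at either site. Over the 12 sites the centred differences had a median of -0.15, the lowest among the 8 genes.

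At Zeb1 the intragenic site chr18:5681264-5681587 had the largest rise of the 6 sites called. It had 4.14 and 4.12 at P0 and a fold enrichment of 5.93 and 7.94 at P8, a centred log2 difference of 1.0 (SE 0.17, limma, adjusted p = 0.00822), and 0.73 uncentred. A second Zeb1 site, chr18:5802825-5803327, lay 27.4 kb outside the gene and had 7.86 and 6.41 at P0 and 9.34 in both P8 libraries, a centred difference of 0.67 (SE 0.18, limma, adjusted p = 0.0341), and 0.40 uncentred. This call was lost without centring (limma, adjusted p = 0.155), without P0 A (0.0716), without P0 B (0.273) and without P8 A (0.0676). ZEB1 represses epithelial genes, and with them microRNAs that in turn target Zeb1 and Zeb2. The median centred difference over the 11 tested Zeb1 sites was 0.39, with a range from -0.24 to 1.0, and the site with the highest value in any 1 library, chr18:5619356-5619780, had 11.6, 9.15, 6.43 and 8.08. The site chr18:5819640-5820691 was higher in the other 3 libraries, with 8.97, 10.8, 8.47 and 9.86.

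Near Twist1 a pair of adjacent sites had differences of opposite sign. The site chr12:34040874-34041239, 81.0 kb from the gene, had 4.78 and 4.01 at P0 and 7.16 and 6.91 at P8, a centred difference of 0.96 (SE 0.18, limma, adjusted p = 0.00969). The site next to it, chr12:34039941-34040652, had 11.7 and 12.8 at P0 and 8.47 and 7.63 at P8, with a centred difference of -0.34 that did not pass the test (SE 0.18, limma, adjusted p = 0.258). Both P8 values lay above both P0 values at the first and below them at the second, which was the strongest site of the Twist1 window. Both lie between Twist1 and Hdac9, with Hdac9 nearer.

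Near Zeb2 the site chr2:45126278-45126684, 8.84 kb outside the gene beyond its upstream start, had 4.14 and 5.95 at P0 and 5.93 and 7.58 at P8. The passages overlapped before centring, and the centred difference was 0.71 (SE 0.20, limma, adjusted p = 0.0458). This call was lost without centring (0.43, limma, adjusted p = 0.205), without P0 A (0.43, adjusted p = 0.346), without P0 B (0.98, adjusted p = 0.0754) and without P8 B (0.61, adjusted p = 0.0564). The strongest Zeb2 site, chr2:44956174-44956808, had 13.3, 12.1, 10.6 and 11.95, so both P0 libraries were higher as deposited and both P8 libraries after centring (0.10, SE 0.17, limma, adjusted p = 0.74). The next, chr2:44926507-44927724 within Gtdc1, had 12.1, 12.02, 12.3 and 11.8, which overlapped as deposited, with both P8 libraries higher after centring (0.27, SE 0.17, limma, adjusted p = 0.35). Twist2 had its strongest sites inside the gene, at chr1:91823290-91823877 with 13.8, 12.7, 12.5 and 12.8 and at chr1:91816533-91817024 with 10.2, 12.7, 9.37 and 9.91, and neither passed the test. The strongest site of the Prrx2 window, at chr2:30753168-30753740, had 16.2, 16.3, 10.3 and 13.2 and a centred difference of -0.21 (SE 0.17, limma, adjusted p = 0.478), and its nearest gene was 1700001O22Rik. In the windows of Prrx2, Twist2, Snai1 and Snai2 no site passed the threshold.

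**Figure D4:**
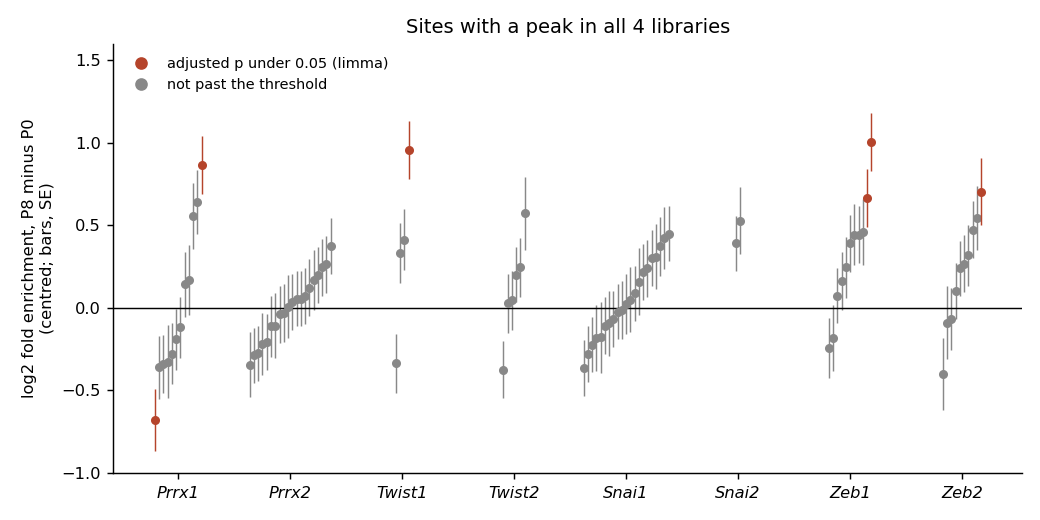
Difference in log2 fold enrichment, P8 minus P0 after centring (y axis), at the 86 sites with a peak in all 4 libraries, grouped by gene (x axis) and sorted within a gene, with points for the estimate, bars for the moderated SE and red for adjusted p under 0.05 (limma). Of the 6 red points, 5 lie above 0, at Prrx1, Twist1, Zeb1 and Zeb2, and 1 below, at Prrx1.

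Partner and target genes of the 8 factors were described by the same counts. The bHLH genes comprise the E proteins Tcf3, Tcf4 and Tcf12, with which the TWIST proteins pair, and Id1 to Id4, whose products sequester E proteins. All 7 had a peak at a gene end in every library. In 5 of 7 both P0 libraries held more peaks within 100 kb, among them Tcf4 (63, 45, 28 and 40), Id3 (41, 37, 24 and 29), Tcf3 (37, 32, 21 and 25) and Tcf12 (32, 28, 24 and 23). Of 6 other factors associated with EMT, 5 had a peak at a gene end in every library, with Klf8 at 0 throughout, and 3 of 6 had more peaks in both P0 libraries, namely Foxc1 (23, 20, 12 and 11), Gsc (23, 23, 17 and 16) and Foxc2 (28, 28, 21 and 24). Over all genes, 58.2% had a peak at a gene end in every library. The shares with more peaks in both P0 libraries stand beside the 56.1% of all genes given above.

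Summed over each list, the peaks at gene ends in P0 A, P0 B, P8 A and P8 B came to 9, 5, 0 and 0 for the epithelial target genes and 12, 8, 4 and 5 for the epithelial factors. A lower sum in both P8 libraries was not particular to them. It also occurred for the bHLH genes (16, 16, 14 and 12) and the other EMT factors (11, 13, 9 and 10), but not for the mesenchymal target genes described below. Of 7 epithelial target genes, 6 and 4 carried a peak no farther than 1 kb from an end in P0 A and P0 B and 0 in both P8 libraries, while over all genes the shares were 67.8, 66.0, 60.0 and 61.4% in P0 A, P0 B, P8 A and P8 B. Cdh1, which encodes E-cadherin, Epcam and the tight junction genes Cldn3 and Cldn7 had a peak there in both P0 libraries and in no P8 library, a set of 4 of 7 genes named after their values were seen, against 3.97% of all genes. Ocln and Krt8 had one in P0 A alone. Within 100 kb, 5 of 7 had more peaks in both P0 libraries, against 56.1% of all genes. Among them were Krt18 (40, 35, 18 and 25), Krt8 (31, 29, 17 and 22), Cdh1 (24, 19, 15 and 15) and Epcam (19, 15, 9 and 12), where Krt8 and Krt18 are neighbours and share peaks. Of 6 epithelial factors that oppose EMT, 6, 5, 3 and 2 had a peak at a gene end. Elf3 (2, 2, 2 and 3 peaks) and Esrp2 (2, 2, 1 and 2) had peaks there in every library. Within 100 kb, 4 of the 6 had more peaks in both P0 libraries, against 56.1% of all genes. These were Grhl2 (26, 21, 11 and 16), Esrp1 (18, 18, 6 and 7), Ovol2 (24, 15, 8 and 8) and Ovol1 (30, 26, 23 and 25). Esrp2 (17, 13, 14 and 19) and Elf3 (20, 15, 14 and 15) overlapped. At the ends, Ovol1 and Esrp1 had peaks in both P0 libraries and in no P8 library.

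The mesenchymal target genes had peaks at gene ends at both passages. All 5, Cdh2 and Cdh11 for N-cadherin and cadherin 11, Vim for vimentin, Fn1 for fibronectin and S100a4, had one in every library. Over all genes this share was 58.2%. Their summed number of peaks at gene ends was 9, 10, 9 and 12. In 2 of 5 both P0 libraries held more peaks within 100 kb, against 56.1% of all genes. These were Fn1 (25, 21, 13 and 15) and Vim (21, 17, 14 and 16), while Cdh11 (15, 10, 7 and 10) and S100a4 (35, 30, 30 and 34) overlapped. The lists are short and the epithelial target genes also serve as markers of epithelial cells, a share of which in the cultures was not tested.

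**Figure D5:**
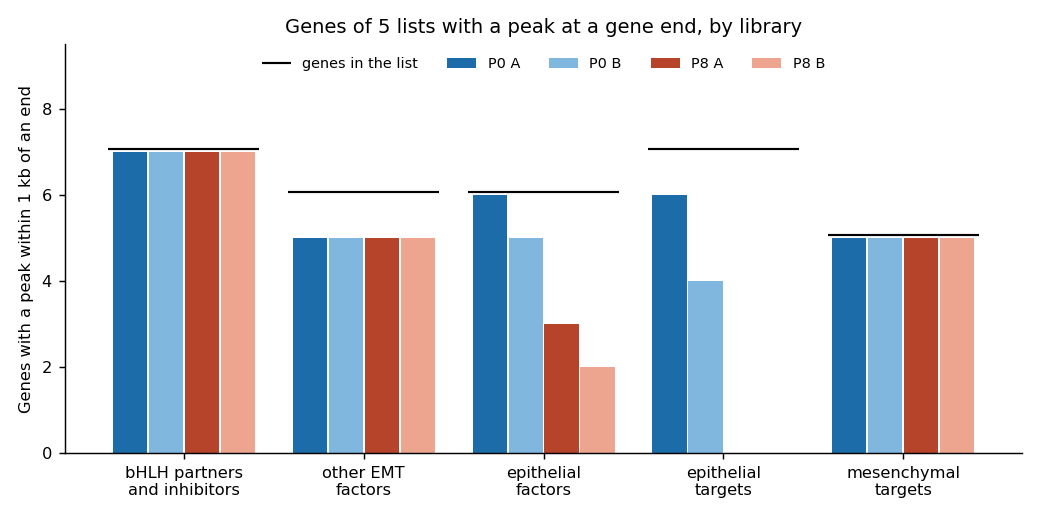
Number of genes with a peak within 1 kb of an end (y axis, genes) in 5 lists (x axis), with 1 bar per library and a line at the number of genes in the list. The epithelial target genes stand at 6 and 4 of 7 at P0 and at 0 in both P8 libraries, and the 5 mesenchymal target genes at 5 in all 4.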

How the data were processed

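Chromatin accessibility was measured by ATAC-seq in 2 libraries each of P0 and P8 mouse chondrocytes. Paired-end reads were aligned by the authors using Bowtie2 (build mm10 in the submitters' processing notes, which give no tool versions) and peaks were called with MACS2 at default parameters in each library. For every peak the authors deposited a pileup signal (tags at the summit, without depth scaling), the fold enrichment as a ratio to local background, and −log10 values of p and q. Another deposited table of the authors' DiffBind comparison holds fold changes and p-values and was not used here. The peak names separate the libraries without replicate numbers. A total of 1.02% of peaks, on sequences other than chromosomes 1 to 19, X and Y, were left out.

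Gene coordinates came from RefSeq (GRCm38.p6) without strand, exons or UTRs, so both gene ends were used. Sites were made by merging peaks that overlap by at least 1 bp. Fold enrichment of the highest peak per site and library was tested on the log2 scale with limma 3.58.1 (R 4.3.3) over all sites held by the 4 libraries, each library centred on its median, with Benjamini-Hochberg adjustment and a threshold of 0.05. Peak numbers were compared by exact two-sided permutation tests over libraries. The deposited −log10 p was computed again from pileup and background and differed by at most 0.00019. For matched depth the summit pileup and local background of each peak were both scaled down to the library with the smallest background. The −log10 p was then computed again, with a cutoff of 3.38. Alternatives also comprised windows of 50 and 10 kb, nearest genes, the same number of strongest peaks (88578) per library, peaks above the median −log10 p (9.40), covered length, a reciprocal overlap of 50%, gene ends within 3 kb, no centring, pileup over the library background, and each library left out. Interval counts and the limma fit were tested on simulated data. Scripts ran in Python 3.11.15 with matplotlib 3.10.9, scipy 1.17.1, pandas 2.3.3 and numpy 2.4.6.

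The 8 genes, the gene lists and the tests were chosen with earlier results of these data known. The sites named are the site nearest a gene start or end, the strongest site, sites past the threshold and up to 3 sites of both P0 or both P8 libraries only per gene, and of each list up to 4 genes with the largest difference in peak number. A few further sites held by 3 libraries, or lying next to a named site, were chosen after their values were seen, as were a few further genes of the lists.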

Additional observations from a re-analysis of the deposited data

How the results depend on the processing

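Peaks near the calling threshold rest on few tags and the P8 libraries were shallower, which limits every count of peaks. Alternatives gave 160 values, of which 37 moved, 3 reversed and 120 did neither. At matched depth the ratio of P0 to P8 peaks for the 8 genes was 1.26, at the stricter threshold 1.36 and by covered length 1.51, against 1.29. Matched depth left 3 genes with more peaks in both P0 libraries, 32 sites of both P0 libraries only and 4 of both P8 libraries only. With the same number of strongest peaks per library the ratio of P0 to P8 peaks reversed to 0.899 for the 8 genes, to 0.938 for Prrx1 and to 0.825 for Zeb2, and 1 gene of the 8 had more peaks in both P0 libraries, against 3. This setting makes the genome-wide ratio 1 by construction. The ratio for the 8 genes ranged from 1.13 to 1.45 when 1 library was left out, and the count of genes with more peaks at P0 from 3 to 6.

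Sites of both P0 libraries only numbered 15 within 10 kb, 14 with the same number of strongest peaks and 14 at the stricter threshold, against 35, and from 39 to 78 with 1 library left out. Sites of both P8 libraries only numbered 2 within 50 kb, 0 within 10 kb, 2 by nearest gene and 18 with 50% reciprocal overlap, against 4, and from 5 to 14 with 1 library left out. The narrower windows hold fewer sites. With 1 library left out the rule has fewer libraries to meet, so these site counts, and the counts of genes, cannot fall. Only 1 of the 4 sites had a gene of the 8 as its nearest gene, so the 2 by nearest gene include a site not among the 4. The cause of the other changes was not tested. The count of genes with a peak at a gene end in all libraries was from 5 to 7 with 1 library left out. Sites lower at P8 in fold enrichment numbered 4 without centring and 4 by pileup over the library background, against 1, and sites higher at P8 numbered 2 and 17, against 5. With 1 library left out, where the lone library of a passage is assumed to vary like the others, they ranged from 0 to 2 lower and from 0 to 9 higher. Of the 6 sites called, the number still called was 3 without centring, 6 by pileup, 3 without P0 A, 0 without P0 B, 5 without P8 A and 5 without P8 B, and all 6 had the same sign in each of these fits. The number of genes with the higher strongest peak in both P0 libraries was 3 within 10 kb and 3 after division by the library median, an alternative chosen after seeing the data, against 5, and from 5 to 7 with 1 library left out. The values of that last count, of the genes with a peak at an end and of the genes with more peaks at P0 with 1 library left out were also chosen after seeing the data. No paired analysis was possible because the peak names could not be tied to the replicate numbers 1 and 2 that the sample labels give in both passages.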

Other observations

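Both Twist genes have a class IIa histone deacetylase gene as a neighbour inside the 100 kb window, Hdac9 next to Twist1 and Hdac4, known as a regulator of chondrocyte hypertrophy, next to Twist2. These neighbours were chosen after their values were seen. Within Hdac9 35 and 28 peaks were called at P0 and 17 and 19 at P8, and of its 48 sites 8 were held by all 4 libraries, 7 by both P0 libraries only (14.6%, against 17.1% of all sites) and 0 by both P8 libraries only (against 1.82%). Within Hdac4 31 and 22 peaks were called at P0 and 14 and 15 at P8, and of its 33 sites 10 were held by all 4 libraries, 5 by both P0 libraries only (15.2%) and 0 by both P8 libraries only. The shares held by both libraries of 1 passage only lay near those of the genome. All 4 libraries held 16.7% of the Hdac9 sites and 30.3% of the Hdac4 sites, against 32.4% of all sites. The ratios of P0 to P8 peaks were 1.75 for Hdac9 and 1.83 for Hdac4, against 1.41 for all peaks. The strongest peak within Hdac9, again taken in each library on its own, had a fold enrichment of 12.2 and 11.0 at P0 and 7.42 and 9.60 at P8. That within Hdac4 had 16.3 and 14.7 at P0 and 13.7 and 15.3 at P8, where the passages overlapped.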
